A study of Mus musculus with 6 samples.

Results

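Genes stimulated by type I interferon were followed in macrophages sorted from omentum (OM) and from mesenteric adipose tissue (MY) of C57BL/6 mice. The set held 41 listed genes of the interferon pathway, from its ligand and receptors to antiviral effectors, and all 41 were present among the 23946 genes of the table. The genes were listed by name with no threshold on their values, but with earlier results of these data known. Levels are in FPKM (fragments per kilobase of transcript, scaled to the fragments of the library), and a gene that reached 1 FPKM in any of the 6 libraries was taken as expressed, which held for 40 of the 41 genes and for 13064 genes of the table. The exception was Ifnb1.

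The study asked how omental macrophages change while ovarian cancer cells colonize the omentum, with mesenteric macrophages for comparison. The 6 conditions were OM naive and MY naive (no cancer cells), OM 24 h and MY 24 h, and OM 7 d and MY 7 d after intraperitoneal injection of ID8, a mouse ovarian carcinoma line of C57BL/6 origin. No library was labelled as coming from mice injected without cells, so ID8 cells and the injection itself cannot be told apart. The mice were inbred females of 6 to 8 weeks. Cells were sorted as CD45+CD11b+F4/80+. For the omentum, tissue of 3 mice was pooled for a library, with 9 mice in all. The study gives no such numbers for the mesentery, so whether the libraries of a time shared mice is not known. It gives an n of 3 for the sequencing, whereas the table holds 1 library per condition. Each condition had 1 library, so values stand without replicate error or p-values, and each difference describes a pair of libraries. Differences were taken on the log2(FPKM + 1) scale, on which changes of lowly expressed genes look smaller than they are, and differences of at least 2-fold (1 on the log2 scale) were counted. Counts over the set stand beside the share of all expressed genes past the same fold, except under alternative settings.

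Type I interferons are cytokines that cells release on sensing foreign or misplaced nucleic acid. They bind a receptor made of IFNAR1 and IFNAR2, whose kinases JAK1 and TYK2 activate STAT2. With IRF9 it forms part of a complex that binds a short DNA element in the promoters of the stimulated genes. The induced proteins include IRF7, which amplifies interferon production, USP18, which dampens the receptor, and effectors that block viral RNA, protein synthesis or budding. Macrophages both produce and respond to these cytokines, and low tonic signalling keeps many of the genes on in resting cells.

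Across the 40 expressed genes, OM 24 h was the library with the highest value for 16 genes and OM 7 d for 10, against 21.9% and 16.1% of all expressed genes. OM naive was the lowest library for 13 of the 40 and MY 7 d for 12, against 16.7% and 12.6% of all expressed genes. MY naive was the highest library for 8 genes, MY 24 h for 4 and MY 7 d for 1, against 12.7%, 17.2% and 14.7% of all expressed genes. The mean of log2(FPKM + 1) over all 41 genes, Ifnb1 included, was 3.67 in OM naive, 4.27 in OM 24 h and 4.10 in OM 7 d. In the mesentery it was 4.12 in MY naive, 3.87 in MY 24 h and 3.67 in MY 7 d.

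**Figure D1:**
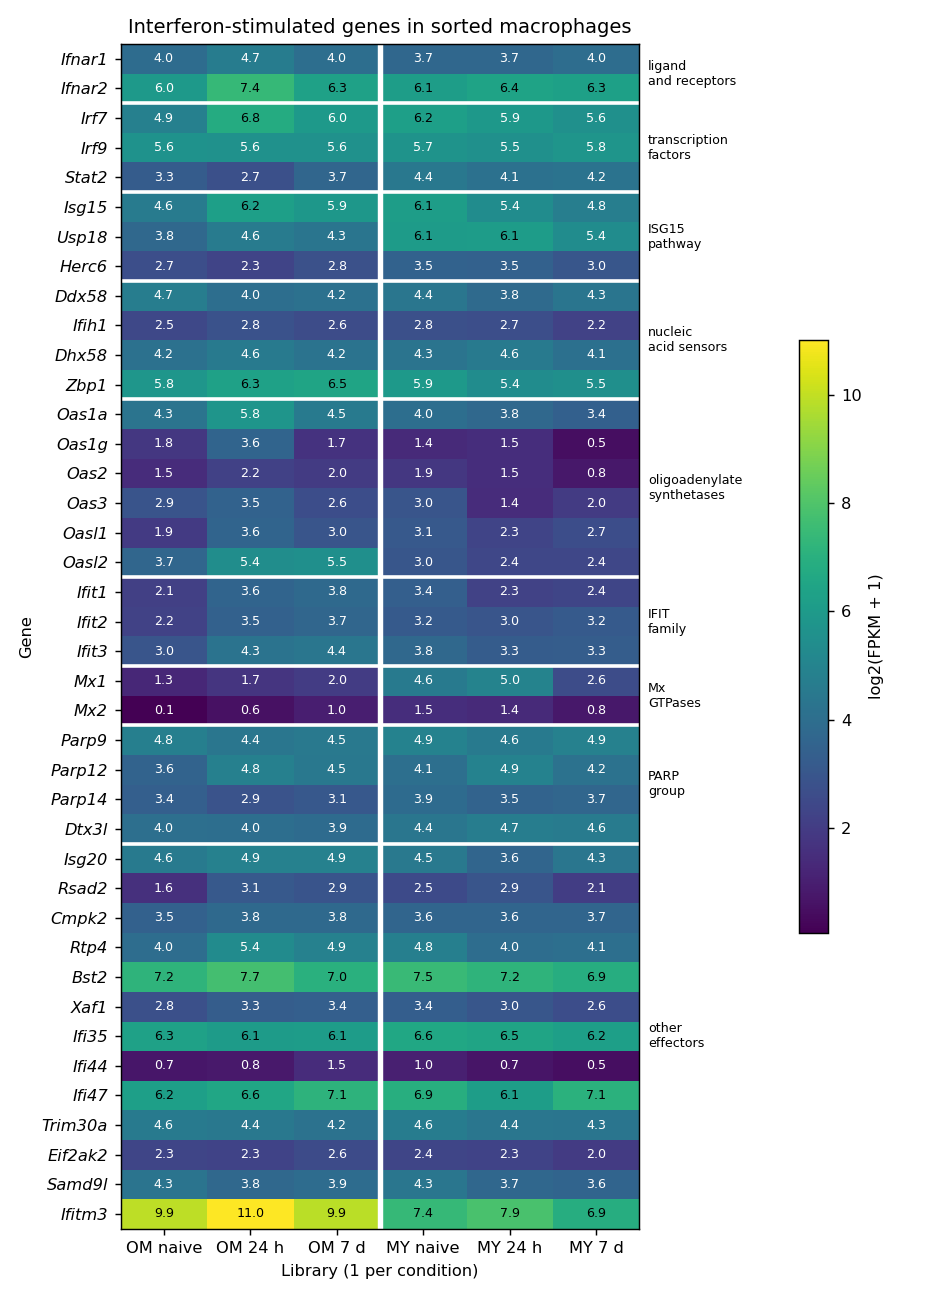
Levels of the 40 expressed interferon-stimulated genes, with genes in rows grouped by role and the 6 libraries in columns. Colour and printed number give log2(FPKM + 1). Ifitm3 is the brightest row, and the IFIT family, Oasl2 and Irf7 are darkest in OM naive among the omental libraries.

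The FPKM of a library summed to between 526887 (MY naive) and 713863 (OM 24 h), and depth is not known from such values. Markers of cell types differed between the libraries as well, in directions that varied by cell type and did not always follow the set. The sort markers Ptprc (CD45), Itgam (CD11b) and Emr1 (F4/80) were present in all 6 libraries, but markers of other cells were too. Of 8 macrophage markers, 8 exceeded OM naive at least 2-fold in OM 24 h, and 7 exceeded MY naive in MY 24 h, where 11.9% and 2.8% of all expressed genes did so. Their summed FPKM was 2133, 12822 and 1218 in OM naive, OM 24 h and OM 7 d, and 1319, 3326 and 1548 in the mesentery at the same times. At 7 d the macrophage sum was below that of OM naive. Of the 8 markers, 0 were at least 2-fold higher than in OM naive and 1 lower, against 11.0% and 1.96% of all expressed genes. All 6 neutrophil markers exceeded OM naive at least 2-fold in OM 24 h, and 2 of the 6 in OM 7 d. Their summed FPKM was 5867, 13653 and 14551 in the omental libraries and 618, 661 and 230 in the mesenteric ones. All 6 mesothelial and epithelial markers were higher in both injected omental libraries (summed FPKM 86.0, 974 and 933), against sums of 0.822 to 1.07 in the mesentery, where Wt1 was listed at 0 in MY naive and MY 7 d. Krt8 and Krt18 of this list encode keratins by which the study detected ID8 cells in the omentum. Whether these transcripts came from mesothelium or from ID8 cells was not tested. The 6 NK cell markers went the other way at 24 h, with summed FPKM of 473, 31.7 and 268 in the omentum and 2697, 1651 and 1269.7 in the mesentery. Plasmacytoid dendritic cells are the main producers of type I interferon. Of 10 genes listed as their markers, 5 (Ly6d, Spib, Pacsin1, Klk1 and Tcf4) were at least 2-fold lower in OM 24 h than in OM naive. The share of all expressed genes was 6.45%, and 0 of the 10 were higher, against 11.9%. Siglech, the defining marker of these cells, was not among the 5 and differed by -0.45 on the log2 scale. Its FPKM was 1.15, 0.574 and 1.03 in the omental libraries and 29.9, 68.9 and 30.1 in the mesenteric ones. The list as a whole did not follow Siglech between the tissues. Of the 10, 4 were at least 2-fold higher in OM naive than in MY naive and 2 lower, against 8.18% and 8.05% of all expressed genes. All 5 B cell, 4 of 5 T cell and all 4 mast cell markers were also at least 2-fold lower in OM 24 h, against 6.45% of all expressed genes. In the omentum Ly6d had an FPKM of 2117, 380 and 1004 and Spib of 190, 40.2 and 124. Cd79a of the B cell list had 1551, 392 and 983. Whether the Ly6d and Spib transcripts came from plasmacytoid dendritic cells or from B cells was not tested. Of 6 monocyte markers, 4 were higher and 1 lower in OM 24 h and 2 were higher in OM 7 d, with summed FPKM of 1677, 1920 and 2195 in the omentum and of 464, 389 and 464 in the mesentery. Of 5 fibroblast markers, 4 were higher in OM 7 d, against 11.0% of all expressed genes, with summed FPKM of 336, 219.7 and 1179 in the omentum and of 1.92 to 2.88 in the mesentery. The part of these cell types in the interferon-stimulated values was not tested. In such bulk libraries, fewer cells of a type and less RNA per cell cannot be told apart.

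**Figure D2:**
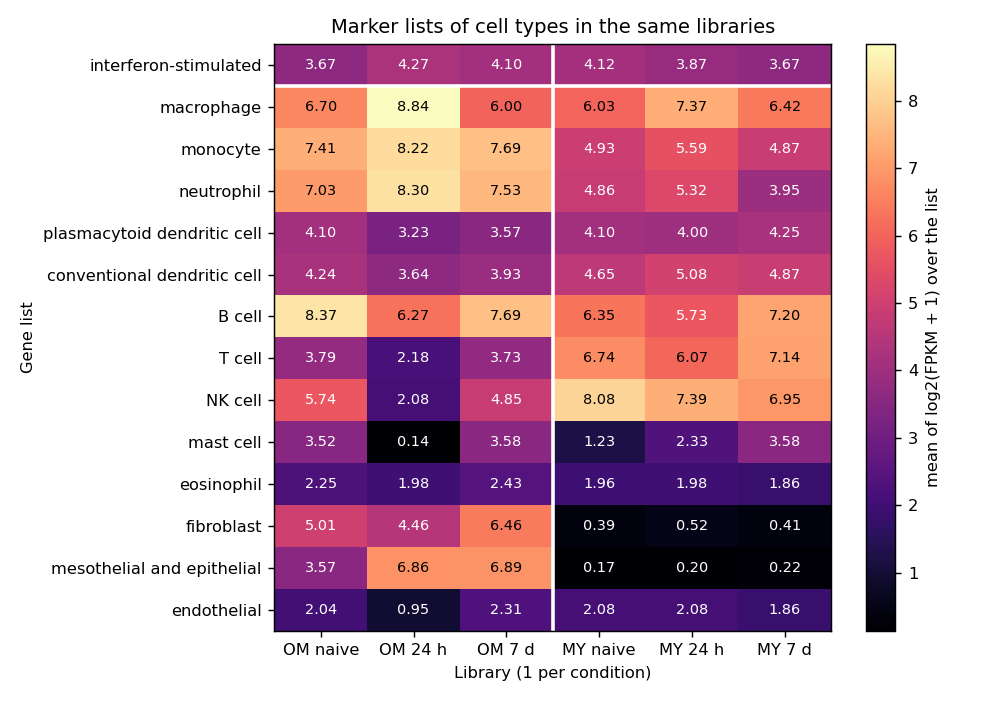
Mean log2(FPKM + 1) over each marker list (rows) in each library (columns), with the 41 interferon-stimulated genes in the top row. The macrophage list is highest in OM 24 h (8.84), whereas the mesothelial and epithelial list is high in both injected omental libraries (6.86 and 6.89) and near 0 in the mesentery.

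The ligand genes were listed at or near 0. Ifnb1, which encodes interferon beta, was listed at 0 in all 6 libraries. Of the 18 type I interferon genes in the table, 0 reached an FPKM of 1 in any library. No expressed gene of the set and none of 10 housekeeping genes was listed at 0 in any library. The former had passed a limit of 1 FPKM and the latter were abundant. They cannot show whether a low transcript would be detected, and 6556 (MY naive) to 8843 (OM naive) genes were listed at 0 in a library. The values give stimulated genes without a measured level of the ligand in the same cells.

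Both receptor chains were expressed. Ifnar1 had an FPKM of 14.5 in OM naive, 24.4 in OM 24 h and 15.3 in OM 7 d, and of 12.1, 12.1 and 14.6 in MY naive, MY 24 h and MY 7 d. Ifnar2 had an FPKM of 62.0, 166 and 78.7 in the omental libraries and of 69.6, 85.4 and 76.4 in the mesenteric ones. OM 24 h stood above the other 5 libraries for both chains, and Ifnar2 was higher there than in OM naive by 1.40 on the log2 scale. Ifnar2 lies on chromosome 16 (91373028 to 91419696, NCBIM37) and its annotation overlaps that of Il10rb on the same strand, so reads there could be shared. Il10rb itself had an FPKM of 85.6, 142 and 77.8 in the omentum and of 85.1, 96.6 and 91.7 in the mesentery.

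The signalling chain below the receptor did not move as a block. Stat2, a subunit of the interferon-activated complex, had an FPKM of 8.60, 5.65 and 11.7 in OM naive, OM 24 h and OM 7 d, against 20.6, 16.6 and 17.97 in the mesentery, so the tissues did not overlap. Irf9, its DNA-binding partner, was nearly flat, with an FPKM of 49.2, 47.0 and 47.4 in the omentum and of 51.1, 45.8 and 54.0 in the mesentery. The kinase gene Jak1 was lower in OM 24 h (62.4) and OM 7 d (81.9) than in OM naive (118), short of 2-fold. Irf7 was the factor that moved. Its FPKM was 27.9, 111 and 61.1 in the omental libraries and 74.5, 58.2 and 45.9 in the mesenteric ones. Thus Irf7 was lowest of all in OM naive and highest of all in OM 24 h, with log2 differences from OM naive of 1.95 at 24 h and 1.10 at 7 d. It lies on chromosome 7 (148448605 to 148452380, minus strand, NCBIM37) and overlaps Phrf1.

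**Figure D3:**
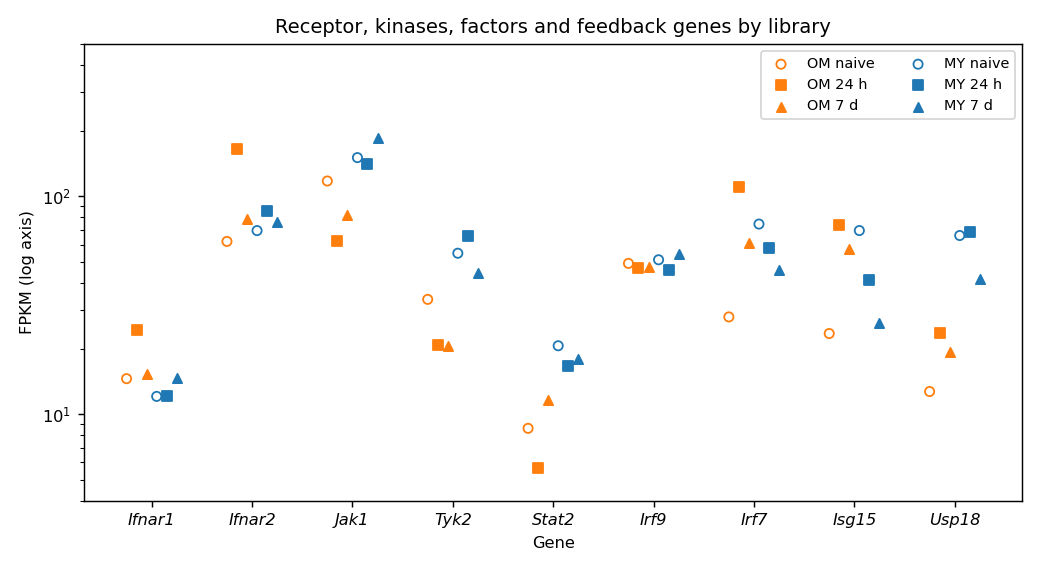
FPKM (log axis) of the receptor chains, kinases, transcription factors and feedback genes, with 1 point per library. Irf7 and Isg15 have their lowest point in OM naive and their highest in OM 24 h, Usp18 and Stat2 lie lower in the omentum throughout, and Irf9 lies between 45.8 and 54.0 in all libraries.

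The question of how the omental macrophage fraction changed within a day of injection was met by OM 24 h against OM naive. Here 14 of the 40 genes (35.0%) rose at least 2-fold, against 11.9% of all expressed genes, and 0 fell, against 6.45%. The median log2 difference was 0.53 over the 40 genes and 0.00 over all expressed genes. The roles shared unevenly in the rise: all 3 IFIT genes, 4 of 6 oligoadenylate synthetases, 3 of 13 other effectors, 1 of 4 in the PARP group, Isg15, Irf7 and Ifnar2, but 0 of 4 nucleic acid sensors and 0 of 2 Mx genes. In order of size they were Irf7, Oasl2, Oas1g, Oasl1, Isg15, Rsad2, Oas1a, Ifit1, Ifnar2, Rtp4, Ifit3, Parp12, Ifit2 and Ifitm3.

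Isg15, a ubiquitin-like protein that is joined to other proteins, had an FPKM of 23.4 in OM naive, 74.1 in OM 24 h and 57.04 in OM 7 d. In MY naive, MY 24 h and MY 7 d it was 69.6, 41.5 and 26.1, so the naive library was the lowest in the omentum and the highest in the mesentery. Other genes of the ISG15 pathway shared this pattern only in part. OM naive was the lowest omental library for Usp18 and Ube2l6 as well, and Ube2l6 was higher in OM 24 h by 1.05 on the log2 scale. MY naive was the highest mesenteric library for Herc6. Usp18, which removes ISG15 and restrains IFNAR2, had an FPKM of 12.7, 23.5 and 19.2 in the omentum and of 66.0, 68.4 and 41.5 in the mesentery, so that every omental library lay below every mesenteric one. Outside the set, the ISG15-activating enzyme Uba7 (26.2, 23.2 and 26.9 against 86.2, 92.3 and 49.3) and the conjugating enzyme Ube2l6 (40.9, 85.9 and 79.6 against 139, 171 and 121) were likewise lower in all omental libraries. Herc6, the main ISG15 ligase of mice, ranged from 3.92 to 5.87 in the omentum and from 7.04 to 10.4 in the mesentery.

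The IFIT proteins bind foreign RNA and hold back its translation. The 3 genes of the set lie near one another on chromosome 19 (34625184 to 34724499, NCBIM37). Ifit1 had an FPKM of 3.36, 11.2 and 12.9 in OM naive, OM 24 h and OM 7 d, against 9.53, 3.76 and 4.15 in the mesentery. Ifit2 had an FPKM of 3.68, 10.1 and 11.8 in the omentum and of 8.01, 6.87 and 7.91 in the mesentery. Ifit3 had an FPKM of 6.86, 18.1 and 19.5 in the omentum and of 12.5, 8.63 and 8.71 in the mesentery. For all 3 genes OM naive was the lowest library and OM 7 d the highest. Ifit1 and Ifit3 have close copies in the mouse genome, between which reads may have been divided.

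The oligoadenylate synthetases sense double-stranded RNA and switch on RNase L. Oas1a had an FPKM of 18.2, 53.6 and 22.3 in the omentum and of 15.5, 12.7 and 9.85 in the mesentery. Oas1g had an FPKM of 2.58, 11.0 and 2.21 in the omentum and of 1.61, 1.85 and 0.382 in the mesentery. Both were high in OM 24 h alone and were back near the naive value in OM 7 d, with log2 differences between OM 7 d and OM 24 h of -1.23 for Oas1a and -1.90 for Oas1g. The synthetase-like genes kept more of their rise. Oasl1, whose protein limits the translation of IRF7, had an FPKM of 2.86, 11.1 and 6.77 in the omentum and of 7.84, 3.95 and 5.34 in the mesentery. Oasl2 had an FPKM of 11.7, 41.6 and 44.3 in the omentum and of 7.03, 4.33 and 4.31 in the mesentery. Oasl2 was thus above every mesenteric library at each time, by 3.00 at 24 h and 3.09 at 7 d on the log2 scale. Oas2 and Oas3 were low, from 0.698 to 3.53 and from 1.73 to 10.5. The 4 genes Oas2, Oas3, Oas1g and Oas1a lie together on chromosome 5 (121180342 to 121357536, minus strand, NCBIM37), and Oas1a and Oas1g are similar enough that reads may have been divided between them.

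The interferon-activated complex binds an element with the core GAAANNGAAA, the known link between the receptor and these genes. Promoters are therefore shown for genes that rose in OM 24 h and held this core before the start. Of the 41 genes, 32 had a window of 300 bases (250 before and 50 after the start) in the RefSeq table of GRCm38.p6, a later build than that of the expression table. Both strands were searched, and overlapping matches were counted apart. The core stood in 14 of the 32 genes, against 3.99% of all genes with a window, and before the start in 10, against 3.46%. Of 13 genes with a window that rose at least 2-fold in OM 24 h, 7 held the core, and of the 18 other expressed genes 7 did. A match is a description of letters and no evidence of binding. The 6 genes shown were picked because they rose and held the core before the start. Irf7, Oasl2, Oasl1, Ifit2, Ifnar2 and Parp12 also rose but had no core in their windows, and Ifitm3 had it only after the start. Shown are the 170 bases before the start of 6 genes that rose in OM 24 h, 5′ to 3′ on the strand of the gene, with the core in capitals on either strand: Isg15 (chr4:156200819-156200988, minus strand), Ifit1 (chr19:34640719-34640888, plus strand), Ifit3 (chr19:34583359-34583528, plus strand), Oas1a (chr5:120907526-120907695, minus strand), Oas1g (chr5:120887614-120887783, minus strand) and Rsad2 (chr12:26456453-26456622, minus strand).
Isg15: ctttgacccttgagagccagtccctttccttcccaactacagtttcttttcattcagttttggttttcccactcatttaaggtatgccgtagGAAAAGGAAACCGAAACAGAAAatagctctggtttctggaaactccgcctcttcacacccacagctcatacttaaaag
Ifit1: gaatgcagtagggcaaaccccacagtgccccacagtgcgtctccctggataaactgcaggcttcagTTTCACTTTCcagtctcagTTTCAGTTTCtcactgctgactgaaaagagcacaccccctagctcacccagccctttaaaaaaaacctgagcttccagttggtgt
Ifit3: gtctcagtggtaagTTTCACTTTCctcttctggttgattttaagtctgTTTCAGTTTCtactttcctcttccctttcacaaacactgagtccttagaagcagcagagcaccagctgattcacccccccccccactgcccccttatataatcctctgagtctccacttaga
Oas1a: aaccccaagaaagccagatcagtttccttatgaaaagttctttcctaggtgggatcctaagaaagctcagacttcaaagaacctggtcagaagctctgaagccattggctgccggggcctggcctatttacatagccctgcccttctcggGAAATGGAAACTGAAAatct
Oas1g: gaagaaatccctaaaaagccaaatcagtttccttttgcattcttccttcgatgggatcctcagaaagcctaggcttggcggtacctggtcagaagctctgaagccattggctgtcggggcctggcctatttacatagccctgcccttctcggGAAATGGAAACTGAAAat
Rsad2: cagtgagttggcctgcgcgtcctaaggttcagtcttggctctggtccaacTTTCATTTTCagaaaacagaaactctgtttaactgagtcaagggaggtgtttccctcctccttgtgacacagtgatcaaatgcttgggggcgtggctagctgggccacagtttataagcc

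In Isg15 the core occurred 3 times in overlapping frames, beginning 78, 72 and 66 bases before the start. Ifit1 and Ifit3 each held it in 2 places on the opposite strand, and Rsad2 in 1. Oas1a and Oas1g carried it in 2 overlapping frames just before the start. Their sequences were identical at 123 of 168 bases (73.2%) when set 2 bases apart, with an identical run of 56 bases. Both had their highest value in OM 24 h.

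Among the other effectors, Rsad2, which encodes viperin, had an FPKM of 2.01, 7.70 and 6.46 in the omentum and of 4.70, 6.71 and 3.23 in the mesentery. Its neighbour Cmpk2, which faces it on chromosome 12, ranged only from 10.2 to 13.2 over all 6 libraries. Rtp4 had an FPKM of 14.8, 40.1 and 28.4 in the omentum and of 27.0, 14.7 and 15.7 in the mesentery, again with opposite courses. Ifitm3, a membrane protein that blocks viral entry, was the most abundant gene of the set by far. Its FPKM was 965, 2051 and 931 in OM naive, OM 24 h and OM 7 d and 168, 234 and 117 in the mesentery. Its peak at 24 h did not last in either tissue. Its relative Ifitm2, outside the set, had an FPKM of 566, 1555 and 559 in the omentum and of 111, 276 and 106 in the mesentery. The annotated genes of this family are alike in sequence and reads may have been divided.

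Another body of genes in the set stayed within 2-fold. The cytosolic RNA sensor RIG-I, encoded by Ddx58, had an FPKM of 25.4, 15.4 and 16.9 in the omentum and of 19.6, 13.3 and 19.0 in the mesentery, and its log2 difference in OM 24 h (-0.68) was the lowest of the 40 genes. Dhx58, a related helicase, had an FPKM of 16.8, 23.0 and 17.8 in the omentum and of 18.2, 22.8 and 16.4 in the mesentery. Ifih1, which encodes the sensor MDA5, ranged from 3.63 to 6.19. Zbp1, a sensor of Z-form nucleic acid, ranged from 40.7 to 87.8. All 4 sensors stayed within 2-fold of the naive library in both tissues.

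Parp12, an ADP-ribosyltransferase with antiviral activity, was the exception within the PARP group and had an FPKM of 10.9, 27.6 and 20.9 in the omentum and of 15.6, 29.5 and 17.1 in the mesentery. It was highest at 24 h in both tissues, although the mesenteric log2 difference of 0.88 was short of 2-fold. Parp9 had an FPKM of 26.5, 19.8 and 21.6 in the omentum and of 29.6, 22.9 and 28.7 in the mesentery. Its partner Dtx3l, a ubiquitin ligase, had an FPKM of 15.5, 15.4 and 13.8 in the omentum and of 19.8, 24.9 and 23.7 in the mesentery. The annotations of Parp9 and Dtx3l overlap on opposite strands, so without strand information reads there could count for either. Parp14 ranged from 6.26 to 9.34 in the omentum and from 10.7 to 13.9 in the mesentery.

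On the log2(FPKM + 1) scale, further effectors stayed within 2-fold of the naive library of their tissue. Isg20, an RNA exonuclease, had an FPKM of 23.1, 28.7 and 28.4 in the omentum and of 21.7, 11.4 and 19.3 in the mesentery, and differed between the tissues at 24 h by 1.26 on the log2 scale. Samd9l, which restrains translation, had an FPKM of 18.5, 12.5 and 14.4 in the omentum and of 19.3, 12.2 and 10.9 in the mesentery. Ifi35 had an FPKM of 80.2, 65.7 and 68.4 in the omentum and of 94.9, 87.0 and 74.3 in the mesentery. All of these were highest in a naive library except Isg20. Trim30a, a regulator of Toll-like receptor signalling, had an FPKM of 23.2, 20.6 and 17.5 in the omentum and of 24.0, 19.7 and 18.9 in the mesentery. Ifi47, which encodes a GTPase that interferon gamma also induces, had an FPKM of 73.7, 93.3 and 139 in the omentum and of 120, 69.4 and 132 in the mesentery. Ifi47 was highest in OM 7 d and lowest in MY 24 h. Bst2, or tetherin, which also marks plasmacytoid dendritic cells, ranged from 116 to 214, Eif2ak2 (the kinase PKR) from 2.94 to 4.86 and Xaf1 from 5.27 to 9.43. Ifi44 had an FPKM of 0.656, 0.783 and 1.73 in the omentum and of 1.07, 0.596 and 0.392 in the mesentery. It stayed within 2-fold only because 1 was added to these low values.

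The Mx genes encode dynamin-like GTPases, and C57BL/6 mice carry an Mx1 allele whose protein is not functional. Mx1 had an FPKM of 1.47, 2.35 and 3.06 in OM naive, OM 24 h and OM 7 d. In MY naive, MY 24 h and MY 7 d it was 22.7, 30.3 and 5.10. It was thus the gene with the widest gap between the tissues, with a log2 difference of -3.26 between the naive libraries, and the gap was -0.59 at 7 d, when the omental value differed from naive by 0.72 and the mesenteric one by -1.96. Mx2 was low, with an FPKM of 0.0528, 0.472 and 0.998 in the omentum and of 1.81, 1.61 and 0.699 in the mesentery. It was thus higher in both injected omental libraries than in OM naive. On the log2(FPKM + 1) scale these differences were only 0.48 and 0.92, since the added 1 shrinks changes at such levels.

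A week after injection, OM 7 d against OM naive, 8 of the 40 genes (20%) had risen at least 2-fold, against 11.0% of all expressed genes, and 0 had fallen, against 1.96%. The median log2 difference was 0.34 over the 40 genes, and 28 of them were higher by any amount, against 49.2% of all expressed genes. The 8 genes were Oasl2, Ifit1, Ifit2, Ifit3, Rsad2, Isg15, Irf7 and Oasl1. Both omental comparisons use OM naive, so each is given only by its own values: Ifit1 differed from OM naive by 1.49 at 24 h and 1.68 at 7 d, Oasl2 by 1.75 and 1.84, Isg15 by 1.62 and 1.25, and Ifitm3 by 1.09 and -0.05. Directly between the injected omental libraries, 0 genes were at least 2-fold higher in OM 7 d, against 7.03% of all expressed genes, and 4 (Oas1g, Oas1a, Ifitm3 and Ifnar2) were lower, against 4.52%. After rescaling of each library to the same sum, which took the median of all expressed genes from 0.05 to 0.37 here, 1 gene was higher and 1 lower.

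In the mesentery the same injection was followed by no rise of the set. In MY 24 h against MY naive, 0 of 40 genes rose at least 2-fold, against 2.8% of all expressed genes, and 2 (Oas3 and Ifit1) fell, against 1.52%. In MY 7 d against MY naive, 0 rose, against 0.498%, and 5 (12.5%) fell, against 2.29%: Mx1, Isg15, Oas2, Ifit1 and Oas3. The median log2 difference over the 40 genes was -0.28 at 24 h and -0.48 at 7 d, with all expressed genes at 0.00 and 0.02. Between the injected mesenteric libraries, 0 genes were higher at 7 d, against 1.84%, and 3 (Mx1, Oas1g and Ifitm3) were lower, against 3.54%. Rescaling to the same sum gave 1 higher and 2 lower.

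**Figure D4:**
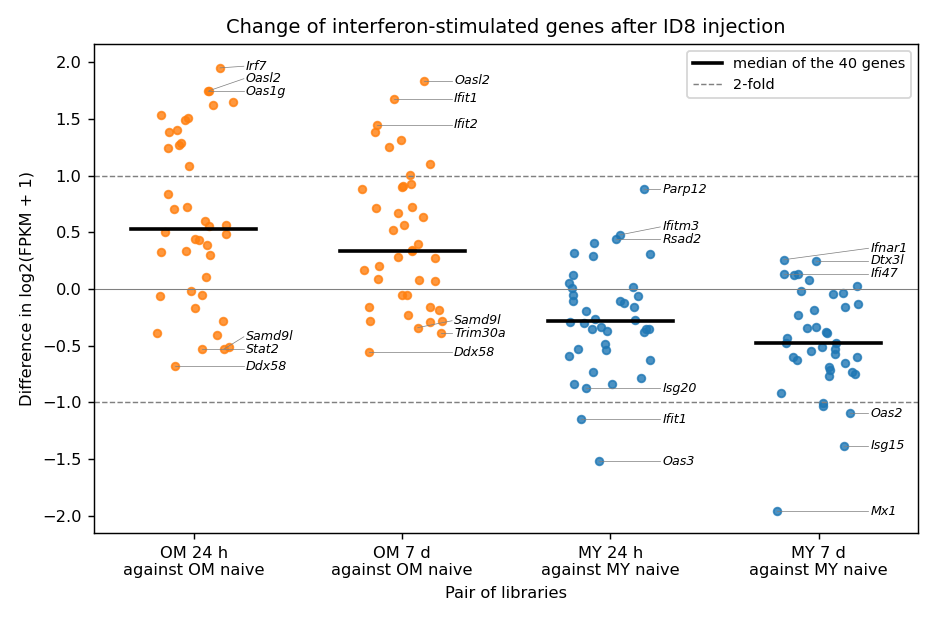
Difference in log2(FPKM + 1) between each injected library and the naive library of its tissue, with 1 point for each of the 40 genes, a bar at their median and dashed lines at 2-fold. The omental medians are 0.53 and 0.34 and the mesenteric ones -0.28 and -0.48. The highest and lowest genes are named.

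The tissues were next compared at each time. Before injection, 8 of the 40 genes (20%) were at least 2-fold lower in OM naive than in MY naive, against 8.05% of all expressed genes, and 1 (Ifitm3, by 2.51 on the log2 scale) was higher, against 8.18%. The lower genes were Mx1, Usp18, Isg15, Mx2, Irf7, Ifit1, Oasl1 and Stat2. At 24 h the balance had turned, with 9 genes higher in the omentum, against 13.9% of all expressed genes, and 4 (Mx1, Usp18, Stat2 and Herc6) lower, against 10.2%. The 9 were Ifitm3, Oasl2, Oas3, Oas1g, Oas1a, Rtp4, Ifit1, Oasl1 and Isg20, among them 5 of the 6 oligoadenylate synthetases. At 7 d, 8 genes were higher, against 14.1%, and 1 (Usp18) was lower, against 4.99%. The share of genes higher at 24 h (22.5%) and 7 d (20%) was closer to that of all expressed genes than the share lower in the naive omentum. Rescaling to the same sum gave 1 higher and 13 lower for the naive libraries, and 8 higher and 6 lower at 24 h.

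Over all 3 times, 5 genes (12.5%) were higher in every omental than in every mesenteric library (Isg20, Oas1a, Oas1g, Oasl2 and Ifitm3), against 16.7% of all expressed genes. A further 6 (15%) were lower in every omental library (Mx1, Stat2, Usp18, Parp14, Dtx3l and Herc6), against 17.7%. The remaining 29 overlapped. Both shares were a little under those of all expressed genes. Without the naive pair of libraries, 21 genes lay above in the omentum and 8 below, each against 28.5% of all expressed genes, so the overlap of most of the set rested on the naive libraries.

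**Figure D5:**
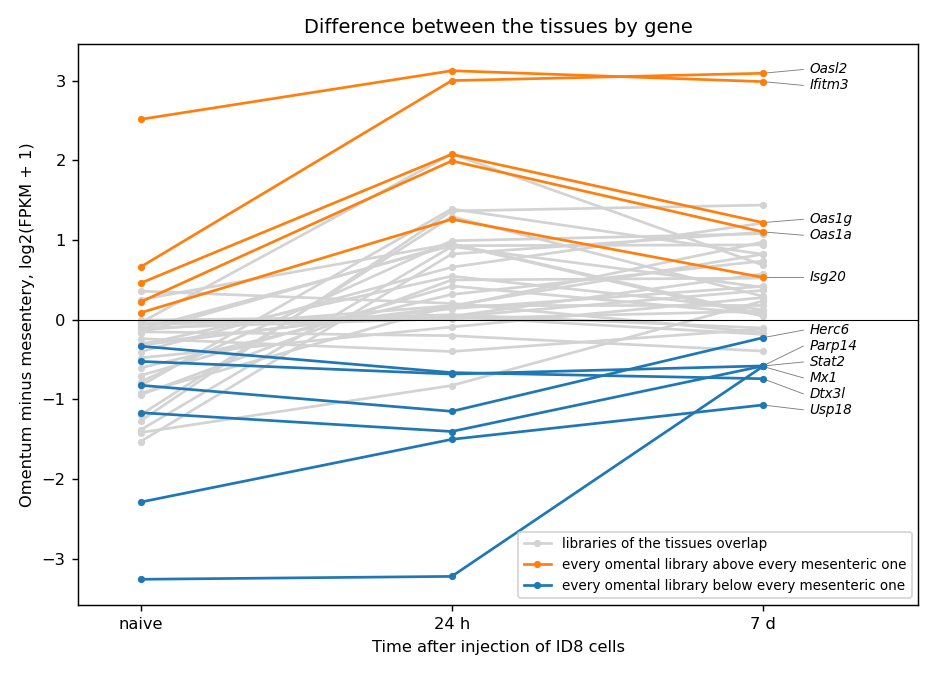
Omental minus mesenteric log2(FPKM + 1) at each time, with 1 line per gene. The 5 genes above and the 6 below in every comparison of libraries are coloured and named, and most of the other 29 move from below 0 in the naive libraries to above 0 after injection.

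Other genes of the pathway were counted from lists chosen by name. Against OM naive, 11.9% of all expressed genes passed 2-fold upward and 6.45% downward in OM 24 h, and 11.0% and 1.96% in OM 7 d. Of 20 expressed sensing and signalling genes, 1 was at least 2-fold higher in OM 24 h than in OM naive (the kinase gene Ikbke, 18.9 against 8.40) and 1 in OM 7 d (Irf1, 176 against 87.2), with 0 lower. Of 6 negative regulators, 0 passed at 24 h and only Socs3, a suppressor of cytokine signalling, at 7 d, with an FPKM of 112, 212 and 257 in the omentum and of 39.1, 35.7 and 54.4 in the mesentery. Of 57 expressed further stimulated genes, 11 were higher and 4 lower in OM 24 h, with a median of 0.11, and 8 higher and 1 lower in OM 7 d, with a median of -0.05. Among them the T cell chemokine gene Cxcl10 went from 12.1 to 124 and 116 in the omentum and from 35.1 to 21.2 and 13.9 in the mesentery. Cxcl9 went from 8.20 to 32.3 and 32.2 in the omentum and ranged from 5.50 to 7.75 in the mesentery. The DNA sensor gene Ifi204 was higher in OM 24 h (38.8 against 10.9), whereas Ly6a, a surface protein also found on stem and progenitor cells, was lower (280 against 1025). In the mesentery 2 of the 57 were higher and 1 lower at 24 h, against 2.8% and 1.52% of all expressed genes, and 0 higher and 3 lower at 7 d, against 0.498% and 2.29%.

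Interferon gamma, its receptor and the GTPases it induces were counted in the same way. Of 19 expressed, 3 were at least 2-fold higher and 1 lower in OM 24 h, against 11.9% and 6.45% of all expressed genes. In OM 7 d, 8 were higher and 0 lower, against 11.0% and 1.96%, and the medians were 0.56 and 0.83. The immunity-related GTPase gene Iigp1 had an FPKM of 2.61, 15.3 and 23.8 in the omentum and of 6.49, 8.51 and 6.80 in the mesentery. Ifng itself had an FPKM of 7.27, 0.0219 and 5.05 in the omentum and of 10.2, 4.21 and 3.92 in the mesentery. Its part in the values of the set was not tested. In the naive libraries, 8 of the 19 were lower in the omentum and 0 higher, against 8.05% and 8.18% of all expressed genes. Differences between these lists and the 40 genes were not tested. Of the interferon lambda list, 2 of 4 genes in the table were expressed, both receptor chains (Il10rb and Ifnlr1).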

How the data were processed

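RNA from sorted macrophages of the omentum and the mesenteric adipose tissue was sequenced in 6 libraries, 1 per condition, with 3 omenta pooled per omental library. The authors checked reads with FastQC 0.11.4, aligned them to mm9 (NCBI37) with STAR 2.4.2a (UCSC gene models) and deposited FPKM per gene symbol made with Cufflinks. FPKM are scaled by library and gene length but carry no read counts, so depth behind a value is unknown and no count test was run. The commonest ratio of FPKM below 0.1 gave an approximate depth of 0.871 (OM naive) to 1.52 (OM 7 d) times that of MY naive.

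From the deposited FPKM, differences of log2(FPKM + 1) between pairs of libraries were computed with Python 3.11.15, numpy 2.4.6 and pandas 2.3.3, and drawn with matplotlib 3.10.9. The pseudocount was 1, genes reaching 1 FPKM in any library were called expressed, and 2-fold differences were counted, without a test. Values in each library were given for the ligand, the receptors and main factors (Ifnb1, Ifnar1, Ifnar2, Stat2, Irf9, Irf7, Usp18, Isg15, Ifitm3) and for genes among the 5 largest rises or falls at an FPKM of at least 10 in either library, in the 4 comparisons with a naive library of the same tissue and that of the naive libraries, which came to 28 genes. Genes given in every library outside this rule (Rsad2, Mx2 and Ifi44, and the sort and cell type markers) were chosen with their values known. Of the pathway lists, up to 4 genes a list and comparison were named by size, and kinase, ISG15 enzyme and cytokine genes were added with values known. The members and all lists were chosen with earlier results of these data known. Alternatives were other pseudocounts, filters, rescalings, a 1.5-fold limit and leaving out a pair of libraries. With no replicate spread, a count within 1.5 times and a log2 value within 0.58 of the reported one was taken as unchanged.

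Gene positions come from GENCODE M1 on NCBIM37 and promoter windows from RefSeq on GRCm38.p6, with no conversion between builds. The values of 1 pathway gene are not reported here.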

Additional observations from a re-analysis of the deposited data

Results flagged for a closer look

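Some genes of the set differed from the naive library in opposite directions in the omentum and the mesentery, by at least 1.5-fold in each. The difference between the tissues was not tested, since each condition had 1 library, and all values are log2(FPKM + 1) differences from the naive library of the tissue. At 24 h, 6 of 40 genes were higher in the omentum and lower in the mesentery, against 0.865% of all expressed genes, and 0 went the other way, against 0.582%. Isg15 differed by 1.62 in the omentum and -0.73 in the mesentery, Ifit1 by 1.49 and -1.15, and Oas3 by 0.60 and -1.52. Oasl1 differed by 1.65 and -0.84, Oasl2 by 1.75 and -0.59, and Rtp4 by 1.38 and -0.84. For these genes the naive omental library lay below the naive mesenteric one except in Oasl2, whose difference between the naive libraries was 0.66. Oas3 was nearly equal in the naive libraries (-0.04).

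At 7 d, 8 of 40 genes did so, against 1.16% of all expressed genes, and 0 went the other way, against 0.475%. Isg15 differed by 1.25 in the omentum and -1.38 in the mesentery, Ifit1 by 1.68 and -1.03, and Irf7 by 1.10 and -0.69. Oasl2 differed by 1.84 and -0.60, Rtp4 by 0.90 and -0.75, and Xaf1 by 0.63 and -0.71. Mx1 differed by 0.72 and -1.96, and Mx2 by 0.92 and -0.73, both at a low FPKM in the omentum. Isg15, Ifit1, Oasl2 and Rtp4 were counted at both times, but the comparisons at 24 h and 7 d share the naive libraries. The summed level of macrophage and mesothelial markers moved as well, and its part in these values was not tested.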

How the results depend on the processing

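No paired analysis was possible because the labels give no replicate numbers and 1 library per condition. Whether the tissues of a time shared mice is not known. Differences between the tissues are given at each time, but the 3 times are different conditions and no test over them was run. Of 1012 recomputed values, 974 were unchanged within the limits given, and 38 moved. Counts at other pseudocounts and after rescaling have no matching share of all expressed genes. They show only how the counts of the set depend on the setting. The limit of 0.58 is wider than the medians of the set, so their ranges are given instead: 0.37 to 0.63 in OM 24 h against OM naive, 0.25 to 0.49 in OM 7 d against OM naive, -0.41 to -0.18 in MY 24 h against MY naive, -0.53 to -0.30 in MY 7 d against MY naive, -0.56 to -0.21 in OM naive against MY naive, 0.04 to 0.50 in OM 24 h against MY 24 h and 0.18 to 0.40 in OM 7 d against MY 7 d. With a pseudocount of 0.1, genes lower became 8 in MY 7 d against MY naive and 6 in MY 7 d against MY 24 h, and 2 were higher in OM 7 d than in OM 24 h. With a pseudocount of 5, genes higher in OM 7 d became 5 against OM naive and 2 against MY 7 d. Genes lower became 0 in MY 24 h against MY naive, 2 in MY 7 d against MY naive, 4 in OM naive against MY naive, 0 in OM 7 d against MY 7 d and 1 in MY 7 d against MY 24 h.

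After rescaling to a sum of 1000000, genes lower became 4 in MY 24 h against MY naive and 13 in OM naive against MY naive. In OM 7 d against OM 24 h it gave 1 higher and 1 lower, in MY 7 d against MY 24 h 1 higher, and 3 genes stayed above in every omental library. It took the median of all expressed genes to -0.17 in OM 24 h against OM naive, 0.12 in OM 7 d against OM naive and -0.27 in OM 24 h against MY 24 h, and the medians of the set were then 0.38, 0.49 and 0.04.

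Counts at a 1.5-fold limit likewise have no share of all expressed genes beside them, and cannot be read against the whole table. At this limit, OM 24 h against OM naive had 1 gene lower and OM 7 d against OM naive 16 higher. MY 24 h against MY naive had 1 higher and 9 lower, MY 7 d against MY naive 15 lower, and OM naive against MY naive 2 higher and 15 lower. OM 24 h against MY 24 h had 16 higher and 7 lower, OM 7 d against MY 7 d 14 higher and 3 lower, and both comparisons of 7 d with 24 h had 2 higher and 9 lower. Without the naive pair, 21 genes lay above in the omentum, against 28.5% of all expressed genes. Low genes were the most affected, as Oas1g in MY 7 d against MY naive ranged from -1.83 to -0.30 over the pseudocounts. Without replicates or counts, no difference here can be set against a measured error.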
